A study of Homo sapiens with 24 samples.

Results

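The genes described here are 20 genes of the integrated stress response and 20 genes for cytosolic aminoacyl-tRNA synthetases, measured by RNA sequencing of human leukaemia cell lines. They were chosen by gene symbol, and all 40 were among the 15862 genes listed. LOUCY and JURKAT are both lines of T-cell acute lymphoblastic leukaemia, and LOUCY is used as a model of its early T-cell precursor form. The 24 libraries formed 5 groups, each divided evenly over 2 independent experiments. LOUCY cells were treated for 24 h with 250 nM JQ1 (n = 4), with 500 nM I-BET151 (n = 4) or with 0.05% DMSO as the vehicle (n = 4). Untreated LOUCY (n = 6) and untreated JURKAT (n = 6) completed the set. JQ1 and I-BET151 are small molecules that occupy the acetyl-lysine pockets of BET proteins. All groups shared the same serum-containing RPMI-1640 medium, and each line is 1 established culture, so differences between LOUCY and JURKAT are differences between 2 lines. Nothing in the labels says whether replicates were separate cultures, so p-values measure the spread between these libraries, which may be technical.

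In the integrated stress response, kinases that sense amino acid shortage, misfolded protein, viral RNA or haem shortage phosphorylate the initiation factor eIF2. General translation then drops, while the messenger RNA of the transcription factor ATF4 is translated better. ATF4 pairs with partners of the C/EBP family at C/EBP-ATF response elements and raises genes for amino acid synthesis, amino acid transport, tRNA charging and, when stress lasts, cell death. Aminoacyl-tRNA synthetases attach each amino acid to its tRNA, and in animal cells several of them sit together in a multisynthetase complex. Many cytosolic synthetase genes are known ATF4 targets, which is why the 2 classes are set side by side. ATF4 activity is set largely by translation, so the level of its RNA does not give the level of the protein.

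RefSeq promoters of GRCh38.p14, reaching from 250 bases before to 50 bases after a start site, were searched on both strands for TGATGNAA, the core of the C/EBP-ATF element. Promoters were found for 34 of the 40 genes. The letters occurred at 4 of 18 stress genes (ATF3, CHAC1, ASNS and CEBPG) and at 7 of 16 synthetases (AARS, CARS, GARS, IARS, MARS, NARS and TARS), against 4.46% of all 27305 genes with a promoter. Counted by window, 4 of 30 stress windows and 7 of 21 synthetase windows held them, against 3.62% of 35116 windows. PYCR1, EIF4EBP1, DARS, LARS, VARS and YARS were not matched to a promoter. Shown here are the windows of the genes called with a BET inhibitor that hold the letters. ASNS, CHAC1 and GARS are added because they differed greatly between the lines, a choice made after their values were seen. Capitals mark the 8 matching letters, or their reverse complement, on the strand of the gene.
ATF3: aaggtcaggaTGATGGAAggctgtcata
CEBPG: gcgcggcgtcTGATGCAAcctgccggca
ASNS: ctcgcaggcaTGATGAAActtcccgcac
NARS: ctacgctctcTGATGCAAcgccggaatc
CHAC1: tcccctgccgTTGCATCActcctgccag
IARS: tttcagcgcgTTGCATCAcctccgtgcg
MARS: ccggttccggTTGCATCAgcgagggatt
GARS: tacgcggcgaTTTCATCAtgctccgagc
The windows lie at chr1:212565206-212565233 (plus strand, ATF3), chr19:33374061-33374088 (plus, CEBPG), chr7:97872459-97872486 (minus, ASNS) and chr18:57621805-57621832 (minus, NARS). The others lie at chr15:40953252-40953279 (plus, CHAC1), chr9:92293693-92293720 (minus, IARS), chr12:57488054-57488081 (plus, MARS) and chr7:30594835-30594862 (plus, GARS). The match lay 191 bases before the start site in ATF3, 209 in CHAC1, 68 in ASNS, 42 in CEBPG, 33 in GARS, 13 in IARS and 4 in MARS. In NARS it lay 14 bases after the start site. Of these 8 windows, CEBPG, NARS, CHAC1, IARS and MARS carry TGATGCAA or its reverse complement, while ATF3, ASNS and GARS differ from it in the variable letter.

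Libraries held 4381134 to 7074198 reads in listed genes. Levels are RPKM, reads scaled to gene length and library size, given as mean ± SD. Differences are on the log2(RPKM + 1) scale with the standard error (SE), and this scale understates changes of genes near 1 RPKM. A gene passed the test when limma's p, adjusted over all genes tested by the Benjamini-Hochberg method, was under 0.05. For each library, deviations from the mean of its own group were set against gene GC content. A GC trend shared by a whole group therefore cannot show, and 1 skewed library shifts the slopes of its group mates. These deviations dropped most steeply with GC content in 3 libraries of experiment 2. The slope was -0.404 log2 units per 10 percentage points of GC in I-BET151 replicate 1. It was -0.348 in DMSO replicate 1 and -0.291 in replicate 2 of the untreated LOUCY cells. The slopes of the other 21 libraries were between -0.162 and 0.187. The median GC content was 57.4% in the stress genes and 47.7% in the synthetases. It was 46.9% in the 7407 genes used for the slopes, which averaged 5 RPKM or more. Without these 3 libraries, 11 stress genes and 9 synthetases passed the test with JQ1 and 11 and 9 with I-BET151, against 11 and 7 and against 10 and 10 with them. Of 7 T-cell markers, 5 were at 1 RPKM or more in each LOUCY group and 7 in JURKAT, with CD2 and CD5 under 1 RPKM in LOUCY. In these bulk libraries, fewer cells that express a gene and less of its RNA per cell cannot be told apart.

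The first comparison asked how the 2 classes differ between the untreated lines. Most stress genes and most synthetases were lower in LOUCY than in JURKAT. Of the 19 stress genes tested, LOUCY was higher for 5 and lower for 11, while 3 did not pass. Among the 11, CHAC1, ASNS and STC2 reached the 1 RPKM needed for testing only in JURKAT. Of the 20 synthetases, LOUCY was higher for 2 and lower for 15, and again 3 did not pass. The lines differed widely, and 73.1% of all genes tested passed, 35.5% higher and 37.5% lower in LOUCY. The median log2 difference was -0.57 over the stress genes and -0.84 over the synthetases, against -0.02 over all genes tested. B-cell markers also differed, with a summed level of 417.8 to 691.5 RPKM in LOUCY and 13.2 to 24.5 RPKM in JURKAT. That sum came mainly from CD79A and CD79B, while MS4A1 averaged under 1 RPKM in both lines. The 4 myeloid markers listed summed to 21 to 34.4 RPKM in LOUCY and 0.184 to 1.07 RPKM in JURKAT. In LOUCY the myeloid sum came mainly from LYZ, at 22.6 RPKM on average, while CSF1R and ITGAM averaged under 1 RPKM. The part of these differences in the results was not tested.

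ATF4 (chr22:39519695-39522685, plus strand), a transcription factor of the integrated stress response, ranged from 60 to 104 RPKM in LOUCY (median 91.4). In JURKAT it ranged from 189.7 to 250.4 RPKM (median 213.7). Every LOUCY library lay below every JURKAT library. The means were 86 ± 18.2 and 217.7 ± 26.5 RPKM (n = 6 each), a log2 difference of -1.35 (SE 0.10, limma adjusted p = 6.61e-09). ATF3, a partner factor induced by ATF4, ran from 4.4 to 5.98 RPKM in LOUCY (median 4.76) and from 6.84 to 9.28 in JURKAT (median 7.64), again without overlap (log2 difference -0.57, SE 0.10, adjusted p = 1.1e-04). DDIT3, the cell-death factor CHOP, spanned 22.4 to 28.1 RPKM in LOUCY (median 26.6) and 25 to 31 in JURKAT (median 29.8). The groups overlapped, and the log2 difference of -0.18 (95% interval -0.35 to -0.01) did not pass, at an adjusted p of 0.0593. That p was 0.0439 without untreated LOUCY replicate 2 of experiment 2, 0.0493 without its replicate 3 of experiment 2 and 0.0291 without JURKAT replicate 2 of experiment 2. It was 0.0083 with GC trends removed and 0.0151 in limma-voom. Of the bases in DDIT3 exons, 31.6% are shared with genes on the other strand, MARS among them, and the libraries do not keep strand.

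The other factors of the class split. ATF5, a relative of ATF4, averaged 4.21 ± 1.3 RPKM in LOUCY and 10 ± 1.9 in JURKAT (log2 difference -1.10). Of its exon bases, 21.2% are shared with genes on the other strand. CEBPG, a C/EBP partner of ATF4, ran the other way and reached 37.9 ± 2.72 RPKM in LOUCY and 17.7 ± 2.96 in JURKAT (log2 difference 1.07, SE 0.10, adjusted p = 8.17e-08). CEBPB was near the detection limit at 0.664 ± 0.374 RPKM in LOUCY and 1.27 ± 0.598 in JURKAT. Its call (log2 difference -0.44, adjusted p = 0.0272) ended without any 1 of 4 libraries, namely untreated LOUCY replicate 3 of experiment 1 and replicates 1 and 3 of experiment 2 and JURKAT replicate 2 of experiment 2, with adjusted p between 0.0526 and 0.0725.

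The largest differences were in genes that LOUCY hardly expressed. CHAC1 (chr15:40952962-40956519, plus), which degrades glutathione, had 0 to 4 reads per LOUCY library and 271 to 538 per JURKAT library. Its level was 0 to 0.427 RPKM in LOUCY (median 0.175) and 31.2 to 69.6 RPKM in JURKAT (median 44.7), with a log2 difference of -5.33 (SE 0.17, adjusted p = 2.78e-13). ASNS (chr7:97852118-97872542, minus), asparagine synthetase, had 3 to 7 reads per LOUCY library and 468 to 1051 per JURKAT library. Those reads correspond to 0.198 to 0.609 RPKM in LOUCY (median 0.389) and 39.8 to 73.1 RPKM in JURKAT (median 55.4), a log2 difference of -5.33 (SE 0.14, adjusted p = 2.47e-14). Asparaginase, a drug used in this leukaemia, acts on cells that make little asparagine. Of the ASNS exon bases, 1985 are shared with a second annotated gene on the same strand, so its level is uncertain. STC2, the secreted glycoprotein stanniocalcin 2, reached at most 0.125 RPKM in LOUCY (lowest 0, median 0.036) and ran from 7.94 to 9.91 RPKM in JURKAT (median 8.31). No LOUCY library came near a JURKAT library in any of these 3 genes. All 3 reached the 1 RPKM needed for testing only in JURKAT, so being tested adds no support for the difference. CBS, the first enzyme of cysteine synthesis from homocysteine, had 0 reads in all 6 untreated LOUCY libraries, where a count of 0 allows up to 3 reads, and 7 to 16 reads in JURKAT. It was too low to be tested, and it has a near-identical copy in the genome.

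Within JURKAT, some levels also differed between the experiments. CHAC1 averaged 62.7 RPKM in JURKAT of experiment 1 and 34.8 in experiment 2. ASNS had 42 RPKM in experiment 1 and 70.3 in experiment 2, and TRIB3, described further on, had 25.4 and 40.1 RPKM. STC2 was closer, at 8.21 and 8.84 RPKM. CHAC1 was thus higher in experiment 1, and ASNS and TRIB3 in experiment 2, and the part of culture or library preparation in this was not tested.

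PYCR1 (chr17:81932384-81942412, minus), which carries out the last step of proline synthesis, spanned 9.19 to 16.1 RPKM in LOUCY (median 14) and 61.9 to 84.2 in JURKAT (median 70.6). Its log2 difference was -2.36 (SE 0.12, adjusted p = 4.93e-11), with no overlap. Of the 2886 exon bases of PYCR1, 450 are shared with a gene on the other strand and 408 with a gene on the same strand. This limits the reading of PYCR1. The enzyme before it in the pathway, ALDH18A1, was slightly higher in LOUCY at 73.3 ± 7.62 RPKM, against 61.7 ± 8.9 in JURKAT (log2 difference 0.25, adjusted p = 0.0165). That call ended within each experiment alone and, with all 12 libraries, in limma-voom on recovered reads (adjusted p = 0.114), an alternative chosen after the data were seen. CTH, which makes cysteine from cystathionine, had 15.7 ± 2.4 RPKM in LOUCY and 8.58 ± 1.48 in JURKAT (log2 difference 0.80, adjusted p = 2.21e-05). The proline and cysteine enzymes therefore did not share one direction.

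Effectors of the stress response split as well. DDIT4 (chr10:72273920-72276036, plus), an inhibitor of the growth kinase complex mTORC1, ranged from 147.1 to 258.7 RPKM in LOUCY (median 207.7) and from 70.1 to 99.3 in JURKAT (median 83). All LOUCY libraries were above all JURKAT libraries (log2 difference 1.26, SE 0.13, adjusted p = 4.53e-07). EIF4EBP1, which blocks the cap-binding factor eIF4E, ranged from 202.6 to 237.2 RPKM in LOUCY (median 214.6) and from 70.8 to 94.5 in JURKAT (median 85.2), a log2 difference of 1.38 (SE 0.09, adjusted p = 8.19e-10). In both genes the direction was opposite to that of ATF4. TRIB3, a pseudokinase that dampens ATF4 and CHOP, ran from 13.4 to 15.3 RPKM in LOUCY (median 14.2) and from 20.3 to 43.3 in JURKAT (median 33.4), a log2 difference of -1.11 (SE 0.12, adjusted p = 5.87e-07). SESN2, a leucine sensor upstream of mTORC1, lay between 3.18 and 5.9 RPKM in LOUCY (median 5.19) and between 9.15 and 12 in JURKAT (median 10.8), a log2 difference of -1.0 (SE 0.10, adjusted p = 3.36e-07). PPP1R15A, which guides a phosphatase back to eIF2, spanned 5.45 to 11.3 RPKM in LOUCY (median 9.34) and 7.48 to 12.1 in JURKAT (median 9.95). Its groups overlapped and its log2 difference of -0.13 (95% interval -0.45 to 0.18) did not pass. For DDIT4, 41.2% of exon bases are shared with an antisense gene, which limits the reading of its level. XPOT, which carries tRNA out of the nucleus, had 31.9 ± 3.2 RPKM in LOUCY and 63 ± 5.43 in JURKAT (log2 difference -0.96). VLDLR, a lipoprotein receptor, had 11 ± 0.715 and 12.5 ± 1.8 RPKM and did not pass, though it passed as lower with GC trends removed (adjusted p = 0.0367) and in limma-voom (0.0173).

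Among the synthetases, GARS (chr7:30594681-30634033, plus), the glycyl enzyme, differed most. It ranged from 77.2 to 90.7 RPKM in LOUCY (median 86) and from 260.5 to 297.2 in JURKAT (median 283.5), a log2 difference of -1.72 (SE 0.06, adjusted p = 1.36e-12). SARS, the seryl enzyme, spanned 31.1 to 38.7 RPKM in LOUCY (median 35.2) and 84.1 to 114.6 in JURKAT (median 100.9), a log2 difference of -1.51 (SE 0.08, adjusted p = 1.93e-10). Neither gene's groups overlapped. The 2 subunits of phenylalanyl-tRNA synthetase differed in size, with FARSB at 47.2 to 66.7 RPKM in LOUCY (median 54.6) and 122.2 to 148 in JURKAT (median 132.7). FARSB had a log2 difference of -1.25 (SE 0.08), while FARSA had -0.50 (SE 0.09) with overlapping groups, at 193.3 ± 24.6 RPKM in LOUCY and 277.1 ± 56.8 in JURKAT. IARS, the isoleucyl enzyme, had 92.1 to 102 RPKM in LOUCY (median 93.7) and 168.6 to 208.4 in JURKAT (median 190.4), a log2 difference of -0.96 (SE 0.06). LARS, the leucyl enzyme, had 42.1 to 48.2 RPKM in LOUCY (median 43.5) and 73.9 to 89.9 in JURKAT (median 84.1), a log2 difference of -0.89 (SE 0.06). TARS, the threonyl enzyme, had 95.1 to 107.9 RPKM in LOUCY (median 98.3) and 159.8 to 186.6 in JURKAT (median 176.9), a log2 difference of -0.82 (SE 0.06). All LOUCY libraries were below all JURKAT libraries in IARS, LARS and TARS.

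The remaining lower synthetases were CARS, RARS, WARS, KARS, AARS, YARS, MARS and EPRS, with log2 differences from -1.20 in CARS to -0.70 in EPRS. The exceptions were few. DARS, the aspartyl enzyme, was higher in LOUCY at 130 ± 16.4 RPKM, against 99.9 ± 11.5 in JURKAT (log2 difference 0.38, SE 0.08, adjusted p = 7.19e-04), with overlapping groups. VARS, the valyl enzyme, had 4.24 ± 1.06 RPKM in LOUCY and 3.21 ± 0.566 in JURKAT (log2 difference 0.30, SE 0.09, adjusted p = 0.00808). That call ended in experiment 2 alone and without the experiment term (0.0653). HARS, NARS and QARS did not pass, with log2 differences between -0.12 and -0.08. With GC trends removed, NARS (adjusted p = 0.0421) and QARS (0.0142) passed as lower, as they did in limma-voom (0.0212 and 0.0397). Among the 8 synthetases of the multisynthetase complex, 1 was higher and 6 were lower, and among the other 12, 1 was higher and 9 were lower. Among all genes tested, 35.5% were higher and 37.5% lower in LOUCY. The sum of the 20 synthetases was 1518.4 ± 83.3 RPKM in LOUCY and 2622.9 ± 158.3 RPKM in JURKAT (n = 6 each). The sum of the 20 stress genes was 756 ± 92.7 and 835.5 ± 66 RPKM, since the high DDIT4 and EIF4EBP1 of LOUCY stood beside the high ATF4, ASNS and CHAC1 of JURKAT.

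The RPKM of VARS cannot be set against that of the other synthetases. Its 475 to 829 reads per untreated LOUCY library are near the read counts of HARS and WARS, at 596 to 808 and 657 to 866. The gene length behind its RPKM, relative to annotated exon bases, was 5.74 times the median of the 40 genes, while in the other 39 this ratio was between 0.384 and 1.67. VARS lies in the major histocompatibility region (chr6:31777518-31795953, minus), and no source used here names the gene models behind the deposited values. Differences of VARS between groups use the same length throughout, but the added 1 RPKM weighs more on it.

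**Figure D1:**
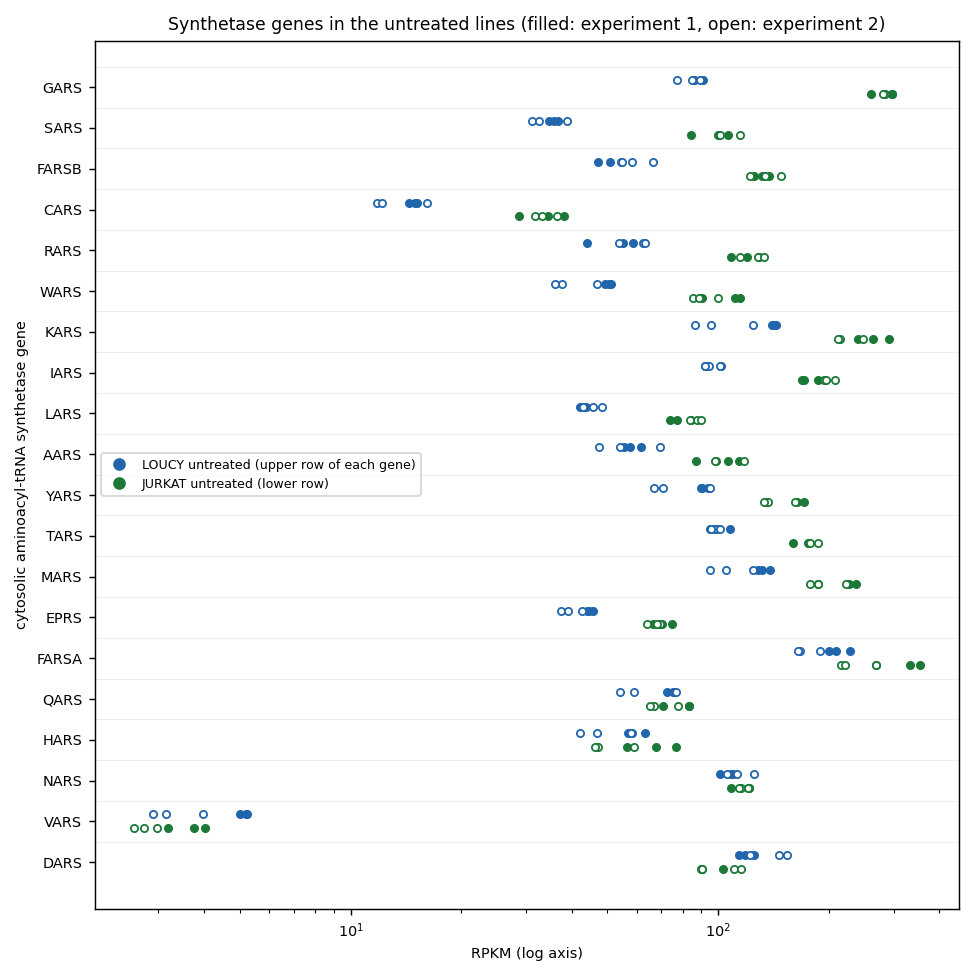
RPKM (log axis) of the 20 cytosolic synthetase genes in each untreated LOUCY library (upper row of each gene) and each untreated JURKAT library (lower row), with filled points for experiment 1 and open points for experiment 2. GARS at the top shows the widest gap (LOUCY 77.2 to 90.7, JURKAT 260.5 to 297.2 RPKM), and DARS and VARS at the bottom are the 2 that were higher in LOUCY.

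The vehicle was compared with untreated cells to learn what DMSO alone does. No stress gene and no synthetase passed the test between DMSO and untreated LOUCY, where 0.175% of all genes tested passed (0.0263% higher and 0.149% lower in DMSO). At an unadjusted p under 0.05, the limma fit held 7 of 15 stress genes tested and 0 of 20 synthetases, against 1100 of 11411 genes. The median log2 difference was -0.24 over the stress genes, 0 over the synthetases and -0.02 over all genes tested. SESN2 had 4.01, 3.85, 1.73 and 3.39 RPKM in DMSO and 3.18 to 5.9 RPKM in untreated LOUCY (median 5.19), with a log2 difference of -0.50 (SE 0.14, adjusted p = 0.15). TRIB3 had 11.1, 11.9, 8.01 and 10.4 RPKM in DMSO and 13.4 to 15.3 in untreated LOUCY (median 14.2), a log2 difference of -0.43 (SE 0.15, adjusted p = 0.299). The groups overlapped for SESN2 and did not overlap for TRIB3. In ATF3, EIF4EBP1 and VLDLR, too, every DMSO library was below every untreated library, with log2 differences of -0.41, -0.40 and -0.22 that did not pass. DDIT4 depended on the experiment. In experiment 1 it had 164 and 168.8 RPKM in DMSO, against 258.7, 257.1 and 235.3 in untreated cells, and in experiment 2 it had 152.1 and 179.9 in DMSO, against 147.1, 148.8 and 180.1. Its log2 difference was -0.59 in experiment 1 alone (adjusted p = 0.00704) and 0.07 in experiment 2 alone, so no common vehicle difference could be given for it.

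The BET inhibitors were each compared with DMSO, the vehicle at the same time. Both comparisons use the same 4 DMSO libraries, so they are not independent. The doses differ, so the inhibitors are set side by side and not against each other. With JQ1, 5 of 15 stress genes tested rose, 6 fell and 4 did not pass, where 26% of all genes tested passed (10.1% higher and 15.9% lower). Of 20 synthetases, 1 rose, 6 fell and 13 did not pass. With I-BET151, 3 stress genes rose, 7 fell and 5 did not pass, and 1 synthetase rose, 9 fell and 10 did not pass, where 26.3% of all genes tested passed (10.3% higher and 15.9% lower). With the GC trend of each library removed, an alternative chosen after the data were seen, 51.5% of all genes called with JQ1 were higher and 52.1% with I-BET151, against 38.9% and 39.3% as deposited. CHAC1, ASNS, CEBPB, CBS and STC2 were too low in LOUCY to be tested, at group means of at most 0.676 RPKM in cells treated with JQ1, I-BET151 or DMSO.

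Values by library are in the order of replicates 1 and 2 of experiment 1 and then of experiment 2. PYCR1, the proline synthesis enzyme, fell most. It had 1.95, 1.34, 2.35 and 2.34 RPKM with JQ1 and 1.75, 2.04, 0.974 and 2.06 RPKM with I-BET151, against 11.6, 12.1, 6.3 and 10.6 RPKM with DMSO. Every treated library was below every DMSO library, the lowest of which was DMSO replicate 1 of experiment 2. The log2 change was -1.87 with JQ1 (SE 0.20, limma adjusted p = 1.35e-06) and -2.02 with I-BET151 (SE 0.20, adjusted p = 5.48e-07). CTH, the cysteine synthesis enzyme, had 8.91, 8.7, 7.06 and 7.85 RPKM with JQ1 and 7.18, 7.77, 6.44 and 6.74 with I-BET151, against 14.5, 15.3, 10.6 and 12.2 with DMSO. It fell by 0.63 with JQ1 (SE 0.10, adjusted p = 1.08e-04) and by 0.81 with I-BET151 (SE 0.10, adjusted p = 7.32e-06) on the log2 scale, again without overlap. ALDH18A1, the enzyme upstream of PYCR1, did not pass, with log2 changes of -0.16 (95% interval -0.39 to 0.07) and -0.19 (-0.42 to 0.04).

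Among the effectors, TRIB3 (chr20:362835-397559, plus) fell while DDIT4 and SESN2 rose. TRIB3 had 3.71, 4.59, 4.01 and 1.94 RPKM with JQ1 and 4.82, 5.49, 2.74 and 3.85 with I-BET151, against 11.1, 11.9, 8.01 and 10.4 with DMSO. All treated libraries were below all DMSO libraries, with log2 changes of -1.34 (SE 0.16, adjusted p = 5.42e-06) with JQ1 and -1.14 (SE 0.16, adjusted p = 3.89e-05) with I-BET151. DDIT4, the mTORC1 inhibitor, had 354.2, 339.5, 333.8 and 345.4 RPKM with JQ1 and 312.8, 292.7, 383.3 and 320.3 with I-BET151, against 164, 168.8, 152.1 and 179.9 with DMSO. The treated libraries also lay above the highest untreated LOUCY library, at 258.7 RPKM. DDIT4 rose by 1.04 with JQ1 (SE 0.15, adjusted p = 4.81e-05) and by 0.97 with I-BET151 (SE 0.15, adjusted p = 1.14e-04). SESN2 (chr1:28259527-28282491, plus), the leucine sensor, had 9.04, 7.08, 6.14 and 7.45 RPKM with JQ1 and 7.83, 7.65, 5.47 and 7.12 with I-BET151, against 4.01, 3.85, 1.73 and 3.39 with DMSO. Its rise was 1.02 with JQ1 (SE 0.15, adjusted p = 4.93e-05) and 0.95 with I-BET151 (SE 0.15, adjusted p = 1.14e-04), with no overlap. Untreated LOUCY had 3.18 to 5.9 RPKM of SESN2. I-BET151 replicate 1 of experiment 2, at 5.47 RPKM, lay inside that range, and all JQ1 libraries lay above it. PPP1R15A, the phosphatase guide, had 15.3, 13.4, 15 and 16.4 RPKM with JQ1 and 12.6, 10.4, 8.6 and 12.8 with I-BET151, against 8.68, 9.76, 7.32 and 9.48 with DMSO. It rose with JQ1 (log2 change 0.71, SE 0.16, adjusted p = 0.00299), where the groups were apart. With I-BET151 the groups overlapped and the log2 change of 0.29 (95% interval -0.04 to 0.63) did not pass, though it did with GC trends removed (adjusted p = 0.00289). EIF4EBP1, the cap-binding inhibitor, fell to 106.8 ± 11.2 RPKM with JQ1 and 115.8 ± 22.9 with I-BET151, against 167.1 ± 28.9 with DMSO (log2 changes -0.63 and -0.53, adjusted p = 0.00229 and 0.00801).

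**Figure D2:**
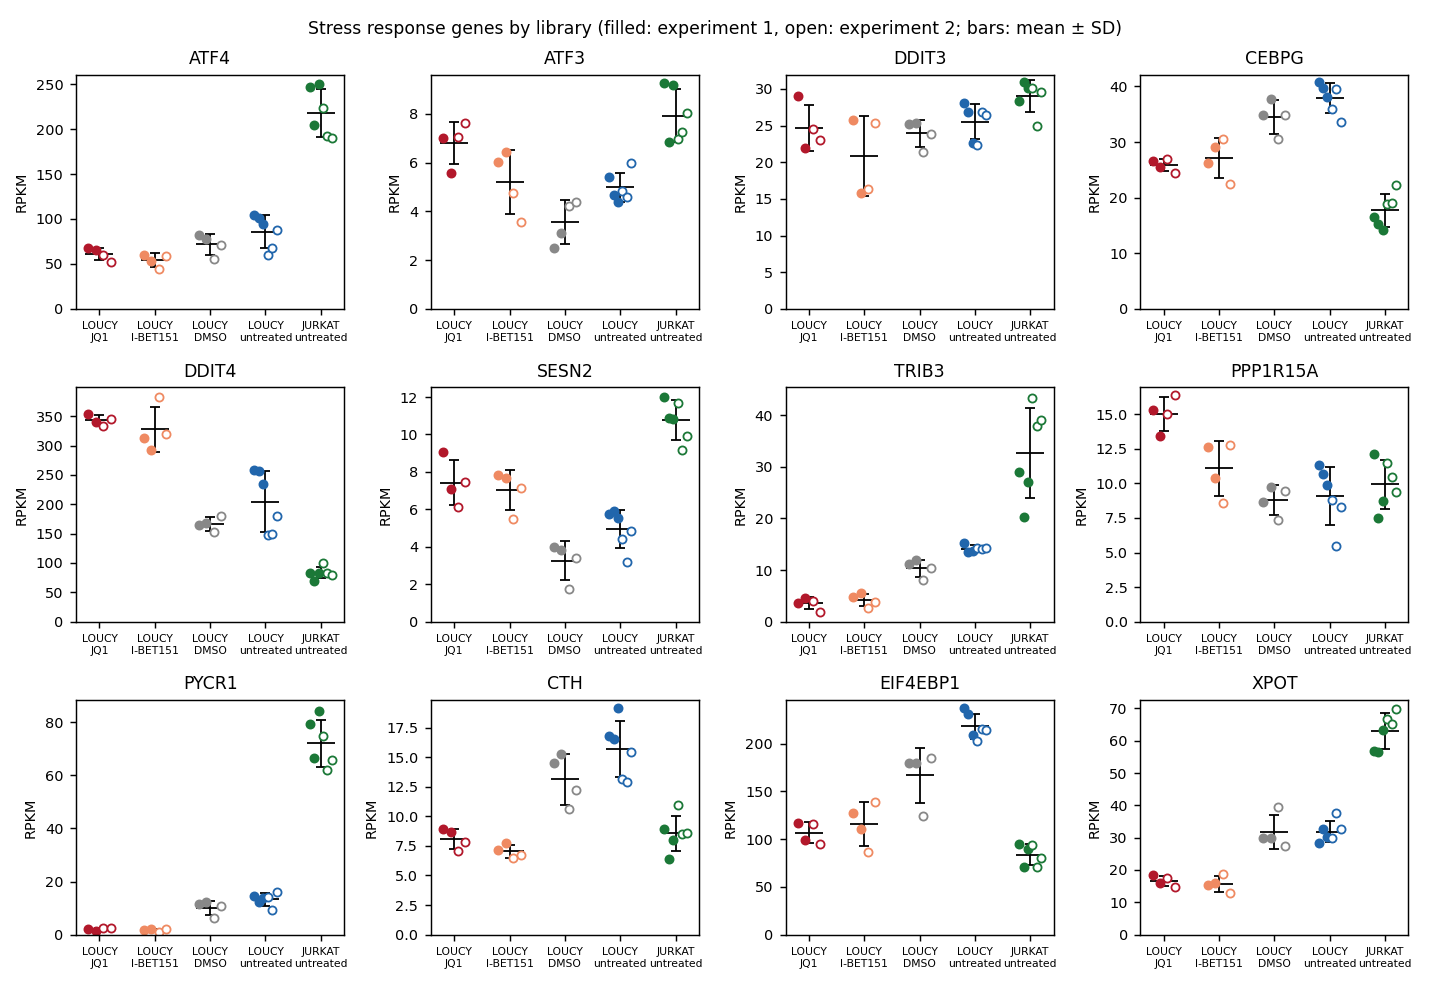
RPKM of 12 stress genes in every library, with groups from left to right JQ1, I-BET151, DMSO and untreated LOUCY and untreated JURKAT, filled points for experiment 1, open points for experiment 2, and bars for mean ± SD. DDIT4 and SESN2 are above DMSO with both inhibitors (DDIT4 292.7 to 383.3 against 152.1 to 179.9 RPKM), while PYCR1, TRIB3, CTH and XPOT are below it, and ATF4 moves little beside its gap to JURKAT.

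Of the 5 transcription factors tested, 1 rose and 1 fell with JQ1, and 2 fell with I-BET151. Among all genes tested, 10.1% rose and 15.9% fell with JQ1, and 10.3% rose and 15.9% fell with I-BET151. ATF4 had 67.4, 65.6, 60 and 51.9 RPKM with JQ1 and 60.4, 53.7, 44.1 and 59 with I-BET151, against 82.6, 78.1, 55.4 and 70.9 with DMSO. Both treated groups overlapped DMSO. The log2 change with JQ1 was -0.22 (95% interval -0.49 to 0.05) and did not pass, while that with I-BET151 was -0.39 (SE 0.13, adjusted p = 0.031). The I-BET151 call ended without any 1 of 6 of the 8 libraries compared (adjusted p = 0.0571 to 0.106), the exceptions being DMSO replicate 1 and I-BET151 replicate 2 of experiment 2. It also ended with median ratio rescaling (0.064), without the experiment term (0.112) and in limma-voom (0.0724). ATF3 had 7.03, 5.58, 7.04 and 7.62 RPKM with JQ1 and 6.04, 6.45, 4.74 and 3.56 with I-BET151, against 2.5, 3.12, 4.22 and 4.4 with DMSO. JQ1 libraries were all above DMSO libraries, and ATF3 rose by 0.79 (SE 0.16, adjusted p = 0.00147). Untreated LOUCY had 4.4 to 5.98 RPKM of ATF3, a range that the JQ1 libraries overlapped. With I-BET151 the groups overlapped and the log2 change of 0.44 (SE 0.16, adjusted p = 0.0568) did not pass. It did pass without DMSO replicate 1 (adjusted p = 0.0444) or 2 (0.0408) or I-BET151 replicate 2 (0.00769) of experiment 2. It also passed with median ratio rescaling (0.0387), GC trends removed (0.0172) or the 3 libraries of steep GC slope left out (0.0412). Within experiment 1 alone the log2 change of ATF3 with I-BET151 was 0.93 (adjusted p = 0.00181), but within experiment 2 alone it was -0.05 (0.926). DDIT3 had 29.1, 22, 24.6 and 23 RPKM with JQ1 and 25.8, 15.8, 16.4 and 25.4 with I-BET151, against 25.2, 25.3, 21.4 and 23.8 with DMSO. Its values overlapped throughout, with 95% intervals of -0.27 to 0.35 with JQ1 and -0.54 to 0.09 with I-BET151. CEBPG fell by 0.40 with JQ1 (SE 0.10, adjusted p = 0.0067) and by 0.34 with I-BET151 (SE 0.10, adjusted p = 0.0176), at 25.8 ± 1.12 and 27.1 ± 3.61 RPKM against 34.5 ± 3.02 with DMSO. Its I-BET151 call ended without DMSO replicate 2 (adjusted p = 0.0586) or I-BET151 replicate 1 (0.0535) of experiment 1 or I-BET151 replicate 2 of experiment 2 (0.0578). ATF5 did not pass with either inhibitor, with log2 changes of 0.04 and -0.07.

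XPOT, the tRNA export factor, had 18.3, 16.1, 17.6 and 14.7 RPKM with JQ1 and 15.2, 16.1, 18.9 and 12.9 with I-BET151, against 29.8, 30, 39.5 and 27.5 with DMSO. All treated libraries lay below all DMSO libraries. Its log2 change was -0.88 with JQ1 (SE 0.13, adjusted p = 5.75e-05) and -0.96 with I-BET151 (SE 0.13, adjusted p = 2.51e-05). VLDLR rose slightly, to 11.9 ± 2.2 RPKM with JQ1 and 11.7 ± 0.81 with I-BET151, against 9.32 ± 0.875 with DMSO (log2 changes 0.31 and 0.30, adjusted p = 0.0248 and 0.0275). Untreated LOUCY had 11 ± 0.715 RPKM, near the treated means. The VLDLR calls ended without either DMSO replicate or inhibitor replicate 2 of experiment 1, and for JQ1 also without JQ1 replicate 2 of experiment 2, with adjusted p between 0.0526 and 0.111. Both ended without the experiment term (0.0681 and 0.0734), and the I-BET151 call also with GC trends removed (0.0569) and in limma-voom (0.0519).

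Falling synthetases were led by IARS (chr9:92210207-92293756, minus), the isoleucyl enzyme. It had 62.1, 66, 55.2 and 53.1 RPKM with JQ1 and 59.6, 62, 50.7 and 49.6 with I-BET151, against 87.7, 92.9, 124.7 and 83.3 with DMSO. No treated library reached a DMSO library, and the log2 change was -0.69 with JQ1 (SE 0.12, adjusted p = 2.41e-04) and -0.79 with I-BET151 (SE 0.12, adjusted p = 7.37e-05). LARS, the leucyl enzyme, had 28, 32.9, 26.4 and 25.8 RPKM with JQ1 and 30.3, 34.2, 31.4 and 20.8 with I-BET151, against 43.3, 39.5, 53.6 and 44.1 with DMSO. Its groups did not overlap either, with log2 changes of -0.65 (SE 0.13, adjusted p = 0.0013) and -0.63 (SE 0.13, adjusted p = 0.00195). Both genes were highest in DMSO replicate 1 of experiment 2. With any 1 of the 8 libraries left out, the log2 change of IARS stayed between -0.75 and -0.55 with JQ1 and between -0.84 and -0.64 with I-BET151. That of LARS stayed between -0.73 and -0.56 and between -0.71 and -0.47, and both genes passed each time.

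FARSA, the catalytic phenylalanyl subunit, had 131.4, 123.4, 132.2 and 128 RPKM with JQ1 and 157.9, 140.5, 91.6 and 145.5 with I-BET151, against 214.2, 198.9, 156.1 and 229.3 with DMSO. The JQ1 libraries were all below DMSO, and the highest I-BET151 library overlapped the lowest DMSO library. FARSA fell by 0.61 with JQ1 (SE 0.14, adjusted p = 0.00278) and by 0.59 with I-BET151 (SE 0.14, adjusted p = 0.004). Its partner FARSB had log2 changes of -0.19 and -0.11 and did not pass with either. YARS, the tyrosyl enzyme, had 56, 45.8, 51.1 and 46.1 RPKM with JQ1 and 58.5, 51.1, 29.6 and 48.7 with I-BET151, against 77.8, 77.7, 58.6 and 81.3 with DMSO. It fell by 0.55 with JQ1 (SE 0.15, adjusted p = 0.0113) and by 0.67 with I-BET151 (SE 0.15, adjusted p = 0.00307), without overlap.

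NARS, the asparaginyl enzyme, had 88.8, 85.6, 94.2 and 85.9 RPKM with JQ1 and 92.7, 99.1, 101.1 and 90.1 with I-BET151, against 107.6, 108.2, 125 and 113.3 with DMSO. Groups were apart in both cases, and the log2 change was -0.35 with JQ1 (SE 0.08, adjusted p = 0.00433) and -0.24 with I-BET151 (SE 0.08, adjusted p = 0.0398). The I-BET151 call ended without any 1 of 6 of the 8 libraries (adjusted p = 0.0555 to 0.103), the exceptions being I-BET151 replicate 2 of experiment 1 and replicate 1 of experiment 2. It also ended with median ratio rescaling (0.0732), without the experiment term (0.0654) and in limma-voom (0.0755). VARS had 2.63, 2.65, 2.92 and 2.61 RPKM with JQ1 and 2.87, 2.63, 1.97 and 2.72 with I-BET151, against 4.46, 4.33, 3.02 and 5.03 with DMSO. No treated library reached the DMSO range, and VARS fell by 0.48 (SE 0.15, adjusted p = 0.0213) and by 0.54 (SE 0.15, adjusted p = 0.00966). The JQ1 call ended without JQ1 replicate 1 (adjusted p = 0.0713) or 2 (0.064) of experiment 1 or DMSO replicate 2 of experiment 2 (0.0846).

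MARS, the methionyl enzyme of the complex, had 101.7, 87.5, 88.9 and 77.4 RPKM with JQ1 and 103.4, 89.6, 54.9 and 80.8 with I-BET151, against 118.4, 119.6, 91.7 and 126.6 with DMSO. Of the MARS exon bases, 12.4% are shared with genes on the other strand, DDIT3 among them. Groups overlapped with both inhibitors. It fell by 0.49 with I-BET151 (SE 0.13, adjusted p = 0.0106), while the JQ1 change of -0.35 (SE 0.13, adjusted p = 0.061) did not pass and did so without DMSO replicate 1 of experiment 2 (0.0459), without the 3 libraries of steep GC slope (0.00208) and with GC trends removed (0.0186). EPRS and KARS, 2 further members of the complex, fell by 0.37 and 0.39 with I-BET151 (adjusted p = 0.0405 and 0.0361). The EPRS call ended without replicate 1 of DMSO or I-BET151 in experiment 1 or DMSO replicate 1 or I-BET151 replicate 2 in experiment 2 (0.0507 to 0.132). The KARS call ended without replicate 2 of DMSO or I-BET151 in experiment 1 or DMSO replicate 2 or I-BET151 replicate 1 in experiment 2 (0.0635 to 0.12). Both calls ended with median ratio rescaling (0.053 for EPRS and 0.0653 for KARS) and without the experiment term (0.0596 and 0.151). That of EPRS also ended without the 3 libraries of steep GC slope (0.0692), and that of KARS with GC trends removed (0.0614) and in limma-voom (0.096). With JQ1, EPRS and KARS did not pass, at log2 changes of -0.28 and -0.15. GARS did not pass with I-BET151 (adjusted p = 0.0715), but did so without I-BET151 replicate 2 of experiment 2 (0.0489).

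SARS was the 1 synthetase that rose, a gene named after its values were seen. It had 45.4, 41.6, 44.1 and 38.1 RPKM with JQ1 and 46.1, 46.7, 33 and 46.5 with I-BET151, against 35.1, 34.1, 29.6 and 37 with DMSO. JQ1 libraries were all above DMSO, while the third I-BET151 library fell inside the DMSO range. The log2 change was 0.31 with JQ1 (SE 0.11, adjusted p = 0.0496) and 0.33 with I-BET151 (SE 0.11, adjusted p = 0.0388). The JQ1 call ended without any library except DMSO replicate 2 of experiment 2 (0.0594 to 0.136). The I-BET151 call ended without any except that library and I-BET151 replicate 1 of experiment 2 (0.0758 to 0.105). Without the experiment term and in limma-voom, SARS did not pass with JQ1 (0.0706 and 0.0691) or with I-BET151 (0.0568 and 0.0883), and with no filter on low values it did not pass with JQ1 (0.0569). QARS, RARS, AARS, CARS, DARS, FARSB, GARS, HARS, TARS and WARS did not pass with either inhibitor, with log2 changes from -0.33 (AARS with I-BET151) to 0.27 (QARS with JQ1). With GC trends removed, QARS passed as higher with JQ1 (adjusted p = 0.00125), and RARS (0.026) and TARS (0.0461) as lower with I-BET151. Without the 3 libraries of steep GC slope, AARS passed as lower with JQ1 (0.0226).

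**Figure D3:**
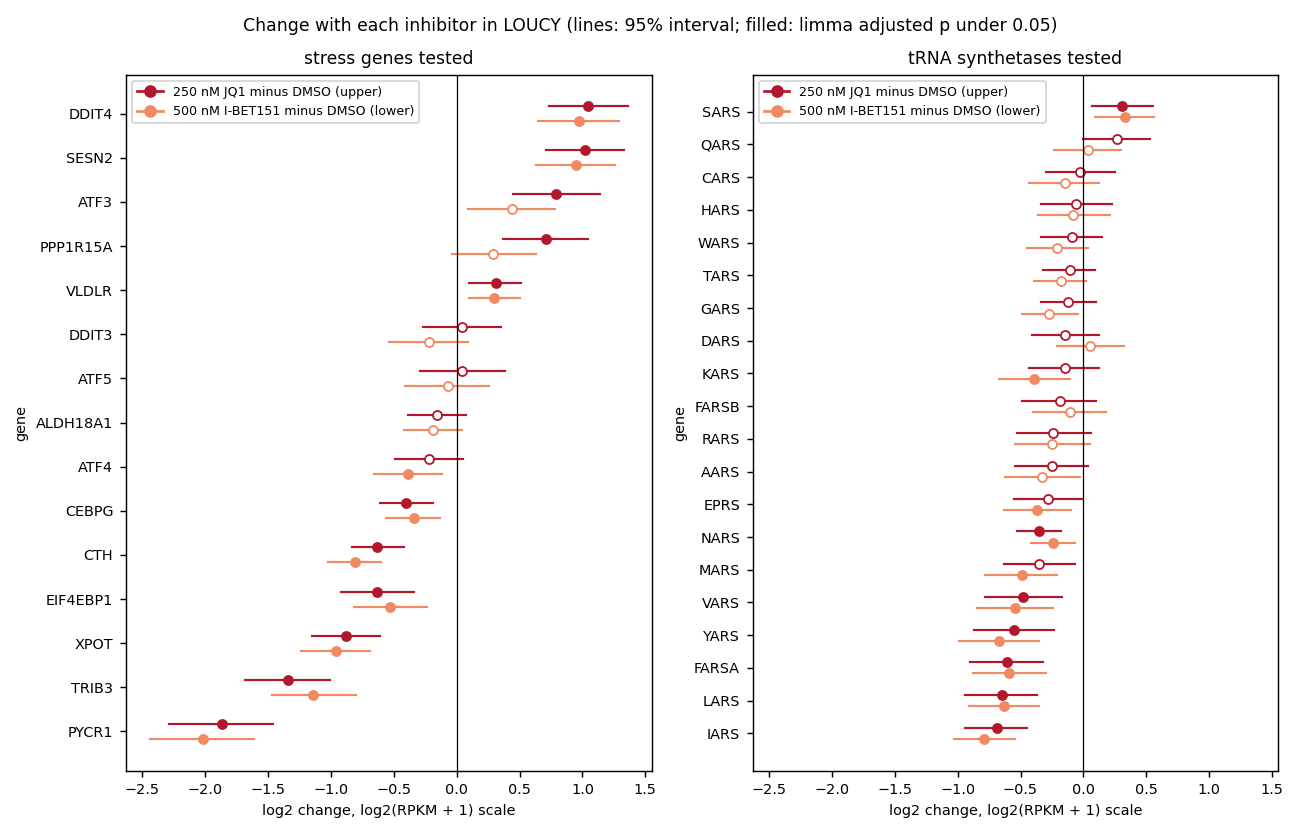
Log2 change, on the log2(RPKM + 1) scale, of the 15 stress genes and 20 synthetases tested, with 95% intervals, for 250 nM JQ1 minus DMSO (upper) and 500 nM I-BET151 minus DMSO (lower), where filled points have an adjusted p under 0.05. Stress genes run from -1.87 (PYCR1) to 1.04 (DDIT4) with JQ1, and synthetases from -0.69 (IARS) to 0.31 (SARS).

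Both experiments gave each called gene the same sign. This held for 11 of 11 stress genes and 7 of 7 synthetases with JQ1, for 10 of 10 and 10 of 10 with I-BET151, and for 16 of 16 and 17 of 17 between the lines. The genes were called from both experiments together, which favours a shared sign, so the agreement is not a separate check. Median sizes of the log2 changes called with JQ1 were 0.77 in experiment 1 and 0.83 in experiment 2 for stress genes, and 0.49 and 0.50 for synthetases. With I-BET151 they were 0.84 and 0.87 for stress genes, and 0.38 and 0.65 for synthetases. Fewer passed in experiment 2 alone, where 392 genes in all passed with JQ1 and 454 with I-BET151. Those left among the 40 genes were DDIT4, TRIB3 and PYCR1 with both inhibitors and IARS with I-BET151.

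The classes were also compared by their medians over all members tested, called or not. The median log2 change with JQ1 was -0.16 over the stress genes (quartiles -0.63 and 0.51) and -0.21 over the synthetases (-0.38 and -0.11), against -0.01 over all genes tested (-0.27 and 0.21). With I-BET151 it was -0.22 over the stress genes (quartiles -0.67 and 0.30) and -0.26 over the synthetases (-0.51 and -0.14), against 0 over all genes tested (-0.25 and 0.23). Of the 8 synthetases in the multisynthetase complex, 2 fell with JQ1 and 5 with I-BET151, and of the other 12, 4 fell with each inhibitor. Among all genes tested, 15.9% fell with JQ1 and 15.9% with I-BET151. The 20 synthetases summed to 1242.3 ± 79.5 RPKM with JQ1 and 1215.8 ± 127.4 with I-BET151, against 1500.9 ± 3.86 with DMSO (n = 4 each). The 20 stress genes summed to 701.6 ± 27.8 and 676 ± 22.8 RPKM, against 629.2 ± 64.6 with DMSO, a sum that DDIT4 dominates. T-cell markers moved with the inhibitors, their sum being 1003.3 to 1059.6 RPKM with JQ1 and 794.8 to 1145.2 with I-BET151, against 1556.2 to 1962 with DMSO, with 5 of 7 at 1 RPKM or more in each group. B-cell markers summed to 242.3 to 335.4 RPKM with JQ1 and 174.2 to 351.6 with I-BET151, against 322 to 589.2 with DMSO. The 4 myeloid markers listed summed to 4.22 to 6.58 RPKM with JQ1 and 4.41 to 6.86 with I-BET151, against 17.9 to 23.9 with DMSO. That sum came mainly from LYZ, at 3.95, 4.49 and 17.1 RPKM on average, while CSF1R and ITGAM averaged under 1 RPKM. The 3 genes listed as non-haematopoietic markers summed to 3.68 to 4.34 RPKM with JQ1 and 2.77 to 4.94 with I-BET151, against 22.4 to 26.8 with DMSO, mainly through PECAM1 (3.42, 3.76 and 24.1 RPKM on average with JQ1, I-BET151 and DMSO). KRT18 and COL1A1 averaged at most 0.36 RPKM in these groups, so the shift of the sum is that of PECAM1 and gives no reading of non-haematopoietic cells. The part of these shifts in the results was not tested.

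**Figure D4:**
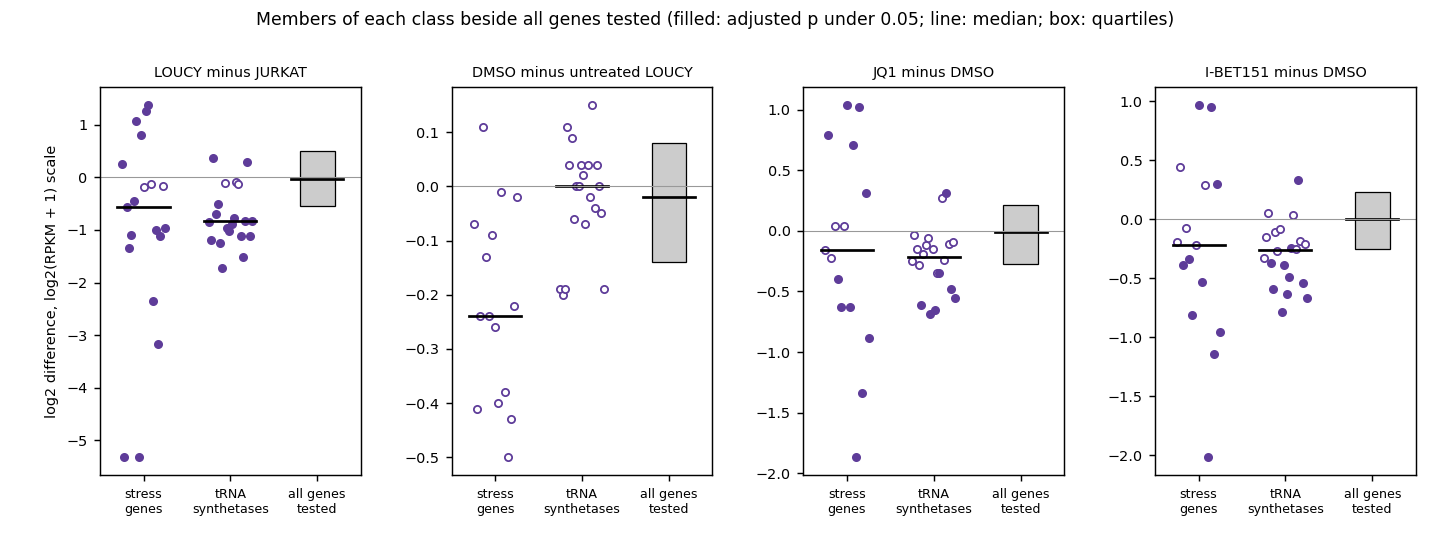
Log2 difference of each tested stress gene and synthetase in the 4 comparisons, with the class median as a line and, at the right of each panel, the median and quartiles of all genes tested, each panel having its own axis. The synthetase median is -0.84 between the lines, 0 with DMSO, -0.21 with JQ1 and -0.26 with I-BET151.

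Other genes of the same pathway were counted from further lists. Between the lines, where 35.5% of all genes tested were higher and 37.5% lower in LOUCY, 6 of the 9 other ATF4 targets tested were lower and 3 were higher. PSAT1, a serine synthesis enzyme, had 0.13 ± 0.0922 RPKM in LOUCY and 479.3 ± 14.2 in JURKAT, and GPT2, an alanine aminotransferase, had 0.0978 ± 0.0873 and 7.98 ± 1.04. PSAT1 and GPT2 reached the 1 RPKM needed for testing only in JURKAT. BCAT1, which starts the breakdown of branched-chain amino acids, was higher in LOUCY at 69.8 ± 25.8 RPKM, against 33.9 ± 7.42 (log2 difference 0.98). Of 10 amino acid transporter genes tested, 2 were higher and 5 lower in LOUCY. SLC7A5 and SLC3A2, the light and heavy chains of the LAT1 leucine transporter, had 5.02 ± 1.15 and 74.2 ± 11.3 RPKM in LOUCY, against 87.6 ± 17.9 and 288.1 ± 33.1 in JURKAT. Of 14 genes for eIF2 kinases, eIF2 and eIF2B, 3 were higher and 7 lower in LOUCY. EIF2AK4, the kinase GCN2 that senses uncharged tRNA, had 4.02 ± 0.689 RPKM in LOUCY and 11.5 ± 0.951 in JURKAT (log2 difference -1.32), while EIF2AK2, the kinase PKR that senses viral RNA, had 15.4 ± 1.41 and 6.8 ± 0.606 (1.07).

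With JQ1, 5 of 9 transporter genes tested fell and none rose, where 10.1% of all genes tested were higher and 15.9% lower. With I-BET151, 6 fell and none rose, where 10.3% were higher and 15.9% lower. SLC7A1, an arginine transporter, had 8.37 ± 0.91 RPKM with JQ1 and 7.67 ± 1.18 with I-BET151, against 14.2 ± 1.29 with DMSO (log2 changes -0.70 and -0.82, adjusted p = 8.08e-05 and 1.68e-05). SLC43A1, a leucine transporter, had 7.18 ± 0.972 and 7.18 ± 1.01 RPKM, against 14 ± 2.6 with DMSO. The JQ1 count was 3 without replicate 2 of either DMSO or JQ1 in experiment 1. Of the 6 other ATF4 targets tested, 1 rose and 3 fell with each inhibitor. BCAT1 had 26.1 ± 3.7 RPKM with JQ1 and 35.1 ± 23.2 with I-BET151, against 60.8 ± 14.9 with DMSO (log2 changes -1.17 and -0.93). The 4 calls with JQ1 became 1 or 2 without either DMSO or JQ1 replicate of experiment 1 or JQ1 replicate 1 of experiment 2. The 4 calls with I-BET151 became 1 or 2 without either DMSO replicate or I-BET151 replicate 1 of experiment 1, or replicate 2 of DMSO or I-BET151 in experiment 2. Of 14 genes for eIF2 kinases, eIF2 and eIF2B, 2 fell with JQ1 and 1 with I-BET151, no larger a share than among all genes, and these include EIF2AK2 at 11 ± 1.67 and 10.8 ± 2.5 RPKM, against 17.3 ± 4.09 with DMSO. With JQ1 that count was 1 without either DMSO replicate or JQ1 replicate 2 of experiment 1, and with I-BET151 it was 3 without DMSO replicate 1 and 5 without I-BET151 replicate 2 of experiment 2. Without the 3 libraries of steep GC slope, 6 fell with JQ1 and 3 with I-BET151.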

How the data were processed

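RNA was made into cDNA by Smart-seq2 and into libraries with Nextera XT, per the labels' protocols, neither of which keeps strand. The authors deposited 1 table of RPKM values. It was made with edgeR 3.10.5, featureCounts, Subread 1.4.5-p1 and STAR 2.5.1b, on genome build hg38, per the submitters' processing notes. No source used here gives the annotation, the gene lengths or how multi-mapped reads were counted. RPKM is relative within a library and cannot show a shift in the whole RNA content of a cell.

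RPKM steps gave whole reads, within 0.01 reads, for 100% of genes, and these were used only for depth, read counts and 1 alternative. The 18 replicate pairs within experiments differed by more than counting error (chi-square per degree of freedom 1.69 to 54.63), so each library counts once. Limits from reads cover counting error only, and precision is poorest for genes with few reads.

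The two-sided test was limma 3.58.1 in R 4.3.3 on log2(RPKM + 1), with a trended variance and a term for the experiment. A gene was tested if at least 4 libraries in the fit had 1 RPKM or more. Untreated LOUCY against JURKAT used 12 libraries and the other comparisons shared 18 LOUCY libraries. The fits were tested on simulated data. Positions of genes are from GENCODE v29 on GRCh38.

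The 40 genes and all lists were chosen with earlier results of these data known. Values by library are given for up to 6 called genes of each class with the smallest adjusted p, plus ATF4, ATF3, DDIT3, DDIT4, TRIB3, CHAC1, ASNS, SESN2 and PPP1R15A where tested. Other lists are given as counts, naming up to 2 genes in each direction. Alternatives varied the pseudocount, filter, scaling, experiment term, experiment, replicate block, libraries and, chosen after the data were seen, the GC trend and limma-voom. Same-numbered libraries deviated together (r over 0.1) in 2 of 6 pairs between the lines and 1 of 4 between DMSO and untreated LOUCY. Between an inhibitor and DMSO, the 2 pairs of an experiment give the same r by construction, so each experiment gives 1 value. With JQ1 it was 0 in experiment 1 and -0.15 in experiment 2, and with I-BET151 it was 0.02 and 0.68. The numbers were not treated as pairs.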

Additional observations from a re-analysis of the deposited data

Results flagged for a closer look

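Among 179 groups of 4 to 6 libraries examined over the 40 genes, 8 held 1 library far from the rest of its group, and chance gives about 1 in 20. Of them, 5 were in replicate 1 of experiment 2 of DMSO or I-BET151. In DMSO that library was lowest for EIF4EBP1 at 124 RPKM, against 179.4 to 185.4 in the other DMSO libraries, for AARS at 40.6 RPKM, against 53.3 to 53.9, and for YARS at 58.6 RPKM, against 77.7 to 81.3. In I-BET151 it was lowest for QARS at 52 RPKM, against 74.9 to 78.8 in the others, and for SARS at 33 RPKM, against 46.1 to 46.7. These 2 libraries had the steepest GC slopes, -0.348 in DMSO and -0.404 in I-BET151, and the part of that in these values was not tested. VARS stood at 2.92 RPKM in JQ1 replicate 1 of experiment 2, against 2.61 to 2.65 in the other JQ1 libraries. In JURKAT replicate 2 of experiment 2, CEBPB stood at 2.47 RPKM, against 0.859 to 1.15 in the others, and VLDLR at 15.9 RPKM, against 10.8 to 12.5.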

How the results depend on the processing

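No called gene changed sign under any alternative. Between the lines, 16 stress genes and 17 synthetases passed, and leaving out 1 library at a time gave 15 to 17 and 17 to 17. With DMSO, 0 and 0 passed in each such fit. With JQ1 the 11 stress genes and 7 synthetases became 10 to 11 and 5 to 7, and with I-BET151 the 10 and 10 became 7 to 11 and 7 to 9. In experiment 2 alone, 3 stress genes and 0 synthetases passed with JQ1, and 3 and 1 with I-BET151. Either experiment alone compared only 2 libraries per inhibitor or DMSO group. In the 2 classes, experiment 2 alone ended 15 calls with JQ1 and 16 with I-BET151, while experiment 1 alone ended 1 and 3. Experiment 1 alone also added 2 and 1. The DMSO pair had a chi-square per degree of freedom of 1.69 in experiment 1 and 32.32 in experiment 2. It was 4.96 and 54.63 for I-BET151, and 6.67 and 2.65 for JQ1. The part of this in the counts was not tested. Experiment 1 alone added 1 stress gene (DDIT4) between DMSO and untreated LOUCY. Without the experiment term, 6 synthetases passed with I-BET151. These cases apart, counts of the 2 classes moved by less than 1.5 times under every alternative run. Correlations of same-numbered libraries ran from -0.54 to 0.68, the highest between DMSO and I-BET151 in experiment 2, and the numbers were not taken as pairs. With the replicate block the counts were 16 and 17 between the lines, 0 and 0 with DMSO, 11 and 6 with JQ1, and 10 and 8 with I-BET151. The block ended the calls of EPRS (adjusted p = 0.0508) and NARS (0.0729) with I-BET151 and of SARS with JQ1 (0.0549). Over all genes, the count called between DMSO and untreated LOUCY moved most, at 20 as reported, 57 in experiment 1 alone, 0 in experiment 2 alone, 4 with the replicate block, 76 with GC trends removed and 7 with limma-voom. Limma-voom put the median of all genes between the lines at -0.12, against -0.02. The planned edgeR and DESeq2 fits were not run, because RPKM is not a count, and limma-voom on recovered reads took their place after the data were seen. Low read counts limit CHAC1, ASNS, STC2, CBS and CEBPB in LOUCY.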

Other observations

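Genes of the unfolded protein response of the endoplasmic reticulum were mostly higher in LOUCY. Of 14 genes tested, 10 were higher and 2 lower in LOUCY (median log2 difference 0.42, against -0.02 over all genes tested, of which 35.5% were higher and 37.5% lower). XBP1, a transcription factor of the unfolded protein response, had 91.2 ± 13 RPKM in LOUCY and 30.3 ± 3.43 in JURKAT, while HERPUD1, which helps clear misfolded proteins, had 62.1 ± 6 and 212.1 ± 13.2. With the inhibitors, 2 rose and 8 fell with JQ1, and 1 rose and 7 fell with I-BET151, where 10.1% and 10.3% of all genes tested were higher and 15.9% were lower with each. SDF2L1, a chaperone partner, had 30.7 ± 2.02 RPKM with JQ1 and 40.9 ± 8.76 with I-BET151, against 87.4 ± 22.1 with DMSO. EDEM1, which marks misfolded glycoproteins for degradation, had 17.9 ± 1.98 and 18.3 ± 1.96, against 11.7 ± 0.721.

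Of 17 mitochondrial synthetases tested, 1 rose and 2 fell with JQ1, and 1 rose and 5 fell with I-BET151, against 26% and 26.3% of all genes tested that passed in either direction, so the JQ1 count is no larger a share. FARS2, the mitochondrial phenylalanyl enzyme, had 9.6 ± 1.42 RPKM with JQ1 and 10 ± 1.3 with I-BET151, against 14.9 ± 1.74 with DMSO. Without the 3 libraries of steep GC slope, 7 passed with JQ1, and with I-BET151 the 6 became 2 or 3 without I-BET151 replicate 2 of experiment 1 or, in experiment 2, DMSO replicate 2 or I-BET151 replicate 1. Of the 3 scaffold genes of the multisynthetase complex, 2 fell with each inhibitor, where 15.9% of all genes tested fell with each. EEF1E1 had 27.3 ± 5.35 RPKM with JQ1 and 36.4 ± 6.55 with I-BET151, against 46.3 ± 5.89 with DMSO, and AIMP1 had 22.7 ± 2.72 and 24.6 ± 2.24, against 32.8 ± 6.4. The I-BET151 count was 0 or 1 without any 1 of 6 libraries, all 4 of experiment 1 and DMSO replicate 1 and I-BET151 replicate 2 of experiment 2. Between the lines, 1 mitochondrial synthetase was higher and 12 were lower in LOUCY, against 35.5% and 37.5% of all genes tested.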
